A study of Mus musculus with 3 samples.

Results

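The 9 genes described here act in blood coagulation or in fibrinolysis, and their mRNA was followed across the cells of isolated mouse glomeruli. They were *Thbd*, *Procr* and *Tfpi*, which restrain clotting, *F3*, *F10*, *F13a1* and *Vwf*, which promote it, and *Plat* and *Plaur*, which belong to the plasminogen system. They were chosen by name, and each was found under its symbol among the 32285 genes of the files. Their levels were read in endothelial, mesangial, podocyte and monocyte/macrophage cells in 3 libraries.

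Clotting starts when tissue factor, the product of *F3*, meets factor VII of the plasma and the pair activates factor X, the product of *F10*. Endothelium holds this in check. Tissue factor pathway inhibitor (*Tfpi*) blocks the first step, and thrombomodulin (*Thbd*) binds thrombin so that it activates protein C, which the endothelial protein C receptor (*Procr*) presents. Fibrin is cross-linked by factor XIII, whose A subunit is the product of *F13a1*, and it is dissolved by plasmin, which tissue plasminogen activator (*Plat*) releases from plasminogen. The urokinase receptor (*Plaur*) holds the other plasminogen activator on the cell surface, and von Willebrand factor (*Vwf*) tethers platelets to the vessel wall. The fenestrated capillaries of the glomerulus carry thrombomodulin and little von Willebrand factor, and tissue factor in the normal glomerulus is a product of podocytes.

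Single glomerular cells were captured in droplets and their mRNA molecules counted by unique molecular identifiers (UMIs), in 1 library for each group. MRL/lpr mice carry the lpr allele of *Fas* on the MRL background and develop lupus nephritis. The study took female MRL/lpr mice as diseased at about 16 weeks, from their urinary protein, and used them untreated or given 800000 mesenchymal stem cells from human umbilical cord (hUC-MSCs) into the tail vein, with the kidneys studied on day 21. The control library is labelled Control Blank. Its strain and age are not given for this experiment, although the methods list MRL-MpJ and Balb/c mice. In other mouse experiments the paper names MRL/MpJ mice as its control. The number of mice behind a library is not given either, and an agent shared by the 3 groups is not named. With 1 library per group the spread between mice is unknown. No difference between groups was tested, and each interval below is an exact 95% interval that covers counting error only.

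The libraries held 94903163 UMIs in control, 103319588 in untreated MRL/lpr and 90812138 in treated mice. Of 6794880 listed barcodes each, 11018, 14109 and 16586 had at least 1000 UMIs and at most 10% mitochondrial UMIs, where the methods state about 8000 captured cells. The methods' limits of 200 to 3000 genes and a cell call by order of magnitude, which the methods do not state and which was chosen here, left 4667, 7574 and 7039 of them, and their limit of 5% ribosomal UMIs left 181, 366 and 141. Predicted doublets were removed, which left 10047, 12698 and 14927 cells with median depths before that step of 5069, 3716 and 2727 UMIs. The libraries shared 35, 61 and 39 barcodes pairwise, where independent draws would share 22.9, 34.4 and 26.9. *Fas* in endothelial-like cells was at 379.7, 444 and 465 CPM in control, untreated and treated mice, so that its level does not settle the lpr label.

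Classes were named from marker genes and are called endothelial-like and so on. Endothelial-like cells numbered 5720 in control, 4172 in untreated and 4884 in treated mice, mesangial-like cells 964, 1610 and 890, podocyte-like cells 2358, 818 and 153, and monocyte/macrophage-like cells 114, 2137 and 3637. The 10 endothelial markers summed to 9782, 9381 and 10583 CPM in endothelial-like cells, and the 10 podocyte markers to 34605, 33237 and 33059 CPM in podocyte-like cells. The 9 mesangial markers summed to 7647, 5839 and 5471 CPM in mesangial-like cells, and the 12 monocyte/macrophage markers to 7489, 13242 and 10246 CPM in monocyte/macrophage-like cells. None of these markers was at 0 in its own class. A level in CPM gives the summed UMIs of a gene per 1000000 UMIs of the class, and it is compared only between cells, not between genes. Every droplet also takes up RNA that was free in the suspension. Its level was taken from barcodes of 1 to 100 UMIs, called empty droplets. The share of free RNA in a class was estimated from markers of other classes. It lay between 2.64% in control podocyte-like cells and 9.44% in untreated monocyte/macrophage-like cells. A level below that of empty droplets therefore does not by itself tell how much of it is free RNA.

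The clusters behind a class were not the same in all libraries. In the mesangial-like class, a cluster led by *Rgs5* and *Sfrp2* held 562 cells in control and 996 in untreated but 97 in treated mice. A cluster led by *Brinp1* and *Cdh11*, with the matrix gene *Col3a1* among its leading genes, held 23, 51 and 770. The treated mesangial-like class therefore consists mostly of other cells than the untreated one. A related cluster led by *Col3a1* and *Cxcl9*, with 75, 146 and 1309 cells, matched the mesangial markers best but took no name, because a smooth muscle marker was among its leading genes, and it is outside the class. With it the class would hold 1039, 1756 and 2199 cells. In all 163 of 10047, 1927 of 12698 and 4052 of 14927 cells had no class, 1.62%, 15.2% and 27.1%, and among them was a cluster with *Gpnmb* and *Trem2* of 8, 69 and 2016 cells. Endothelial-like cells lay mostly in clusters of their own library, with 5261 of 5720 control, 3216 of 4172 untreated and 4394 of 4884 treated cells in clusters of which the larger part came from that library. An endothelial ratio between libraries therefore also compares different clusters. Some endothelial-like sub-clusters had *Lyz2*, *Tyrobp*, *Hbb-bs* or *Miox*, genes of other cells, among their leading genes. Without those sub-clusters 3863, 2047 and 1232 endothelial-like cells remained in control, untreated and treated mice.

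The genes were located in GRCm38 with the GENCODE M21 annotation, where all 9 gene identifiers were found. *Thbd* lies on chromosome 2 at 148404466-148408188, *Procr* on chromosome 2 at 155751117-155755471 and *Tfpi* on chromosome 2 at 84432855-84476775. *F3* lies on chromosome 3 at 121723537-121735048, *F10* on chromosome 8 at 13037308-13056676, *F13a1* on chromosome 13 at 36867178-37050244 and *Vwf* on chromosome 6 at 125546774-125686679. *Plat* lies on chromosome 8 at 22757727-22782844 and *Plaur* on chromosome 7 at 24462484-24475968.

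RefSeq promoter sequences on GRCm38.p6 were at hand for 6 of the 9 genes. The 150 bases before the start are shown for *Procr*, *F3* and *Plaur*. These are members with a promoter that were at least 2-fold higher in mesangial-like cells of MRL/lpr than of control mice. The choice rests on ratios of these same data, and *F3* and *Plaur* lay below empty droplets in those cells. No difference in motifs between the printed and the other members was tested. The sequences lie on chromosomes 2, 3 and 7, in that order, which their labels write with a decimal. Capitals mark matches, on either strand, to the motifs spelled out after the sequences.
Procr chr2.0:155750967-155751116 plus strand: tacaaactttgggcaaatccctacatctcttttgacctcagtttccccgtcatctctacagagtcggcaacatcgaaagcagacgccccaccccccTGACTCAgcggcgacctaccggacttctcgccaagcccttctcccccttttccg
F3 chr3.0:121723387-121723536 plus strand: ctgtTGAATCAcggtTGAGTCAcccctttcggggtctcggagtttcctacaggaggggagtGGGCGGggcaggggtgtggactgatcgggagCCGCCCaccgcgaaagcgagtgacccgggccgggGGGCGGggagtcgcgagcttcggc
Plaur chr7.0:24462333-24462482 plus strand: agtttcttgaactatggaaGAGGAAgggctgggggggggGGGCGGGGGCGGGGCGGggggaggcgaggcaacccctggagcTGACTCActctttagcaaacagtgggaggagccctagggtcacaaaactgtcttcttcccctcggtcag
The AP-1 motif, TGANTCA, stood once before *Procr*, at 2 places before *F3* and once before *Plaur*, and in none of the windows of *Tfpi*, *F10* and *F13a1*. It was found in 4.24% of 32851 windows of this length directly before RefSeq starts. The windows of the members lie before both the RefSeq start and the annotated gene start. That of *Procr* was thereby shifted 100 bases upstream of its RefSeq window and that of *Tfpi* 16 bases. The *Procr* match is not wholly inside the RefSeq window, so 4.24% is not a share for a window placed alike. The PU.1 core, GAGGAA, stood once before *Plaur* and once before *F13a1*, and it was found in 14.5% of all windows. The GC box, GGGCGG, stood 3 times before *F3*, 3 times in overlapping copies before *Plaur* and once before *Tfpi*, and it was found in 28.6% of windows. The TATA box, TATAAA, was found in 7.57% of windows and stood once before *Tfpi* and in none of the sequences printed. A match describes the letters and is not a shown binding site.

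*Thbd*, the thrombin receptor of the protein C pathway, was higher in endothelium of both MRL/lpr libraries. Its level in endothelial-like cells was 172.7 CPM in control (interval 168 to 178), 297 in untreated (289 to 305) and 302.2 in treated mice (295 to 310). Untreated MRL/lpr was 1.72-fold above control, a log2 ratio of 0.78 (0.73 to 0.84). The treated and untreated libraries overlapped, with a log2 ratio of 0.03 (-0.03 to 0.08). After each cell was thinned to 1000 UMIs, 14.3% of control, 20.4% of untreated and 20.6% of treated endothelial-like cells held a *Thbd* UMI, against 0.0848%, 0.244% and 0.654% of podocyte-like cells thinned alike. Before thinning, the median depths were 4261, 3756.5 and 3014.5 UMIs in endothelial-like and 6667.5, 7187.5 and 6585 in podocyte-like cells. The gene thus belonged to endothelium in each library, and endothelial-like cells held 97.2%, 78.0% and 76.2% of all its UMIs in cells, while cells of unnamed clusters held 0.366%, 9.74% and 12.5%. Empty droplets held 39.8, 103 and 115 CPM of it, so free *Thbd* RNA was also higher in the MRL/lpr libraries.

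*Procr* in endothelium went the other way and showed the largest ratio of the endothelial members with over 100 UMIs in each library. Endothelial-like cells held 85.8 CPM in control (82.5 to 89.2), 15.5 in untreated (13.8 to 17.4) and 17.0 in treated mice (15.3 to 19.0), from 2504, 310 and 336 UMIs. The control library stood far above both MRL/lpr libraries, whose intervals overlapped. Untreated MRL/lpr was 5.53-fold lower than control, a log2 ratio of -2.47 (-2.64 to -2.30), and treated differed from untreated by 0.14 (-0.09 to 0.36). Thinned cells with a *Procr* UMI made up 8.50%, 1.53% and 1.64%, against 0.0848%, 0 and 0 in podocyte-like cells. Empty droplets held 29.5, 9.02 and 11.5 CPM, and after an estimate of free RNA was subtracted the endothelial levels were 87.9, 16.1 and 17.5 CPM.

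The receptors of the pathway thus moved apart in the endothelial-like class. Among thinned control cells with a *Thbd* UMI, 9.04% also held *Procr*, against 8.41% of those without. In untreated mice the shares were 1.41% and 1.57%, and in treated mice 1.79% and 1.60%. *Procr* was therefore about equally frequent in cells with and without *Thbd* in each library, at this depth.

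In the mesangium *Procr* was higher in untreated MRL/lpr than in control mice. Mesangial-like cells held 7.503 CPM in control (6.13 to 9.09), 20.4 in untreated (17.8 to 23.4) and 2.88 in treated mice (1.88 to 4.22), from 104, 213 and 26 UMIs. The log2 ratio was 1.44 (1.099 to 1.80) for untreated over control and -2.82 (-3.47 to -2.23) for treated over untreated. With predicted doublets kept and the cells clustered anew the first ratio was 0.34, in a class of 953 control and 786 untreated cells, since a cluster led by *Rgs5* and *Tagln* with 259 and 1146 cells then took no name. In untreated mice this put the mesangial-like level above the endothelial-like one, an order seen in no other library, and mesangial-like cells held 34.5% of the *Procr* UMIs there. It was also above the 9.02 CPM of empty droplets of that library. In the *Rgs5* and *Sfrp2* cluster alone, *Procr* was at 9.32 CPM in control and 23.1 in untreated mice, and the treated cells of that cluster held 1 UMI, 1.496 CPM. In the *Brinp1* and *Cdh11* cluster it was at 0 UMIs in untreated and 2.75 CPM in treated mice. The treated level thus rests mainly on *Brinp1* and *Cdh11* cells, and the unnamed *Col3a1* and *Cxcl9* cluster was at 0 UMIs, 12.8 and 3.09 CPM over the libraries. The part of the cluster mix in the ratio was not tested.

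*Thbd* was higher in mesangial-like cells of MRL/lpr mice too, together with endothelial markers. It was at 4.69, 32.1 and 18.0 CPM in control, untreated and treated mice, below its level in empty droplets each time, and the ratio of untreated over control was 2.78 (2.39 to 3.18) on the log2 scale. In *Rgs5* and *Sfrp2* cells it was at 6.52, 49.98 and 82.3 CPM and in *Brinp1* and *Cdh11* cells at 8.55 and 10.7 in untreated and treated mice, so that in the first cluster the treated level was the higher one and over the class the lower one. The unnamed *Col3a1* and *Cxcl9* cluster had 0 UMIs in control, 81.1 CPM in untreated and 40.2 CPM in treated mice. The 10 endothelial markers summed to 1504, 2742 and 2647 CPM in the same cells, with none at 0, and *Pecam1*, an adhesion molecule of endothelium, was at 22.8, 77.8 and 47.7 CPM and *Cdh5*, its cadherin, at 19.0, 91.8 and 40.8. The mesangial *Plat* and *Plaur* levels below moved in the same order over the 3 libraries except for treated *Plat*, and the part of endothelial RNA in them was not tested.

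In monocyte/macrophage-like cells *Thbd* was at 51.0, 30.0 and 43.1 CPM, of which the control value, with an interval of 33.3 to 74.7, was not below the empty droplets. *Procr* in these cells was at 3.92, 2.36 and 8.72 CPM from 2, 25 and 119 UMIs, and treated over untreated gave a log2 ratio of 1.89 (1.26 to 2.57). All 3 levels were below the empty droplets. The treated UMIs were not spread evenly over the class. A sub-cluster led by *Cxcl9* and *Ccl2* held 0 UMIs in untreated and 29 in treated mice, 28.6 CPM, and one led by *Slpi* and *Il10* was at 6.03 and 16.9 CPM.

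*Tfpi* differed little in endothelium between the libraries. Endothelial-like cells held 67.9 CPM in control, 61.2 in untreated and 77.0 in treated mice, with log2 ratios of -0.15 (-0.25 to -0.05) for untreated over control and 0.33 (0.22 to 0.44) for treated over untreated. Mesangial-like cells came next with 41.4, 56.7 and 70.4 CPM, and their intervals overlapped those of endothelial-like cells in both MRL/lpr libraries. Podocyte-like cells held 12.8, 19.4 and 32.4 CPM, below the 25.95, 33.7 and 35.5 CPM of empty droplets. After the free-RNA estimate was subtracted, the podocyte-like levels were 12.4, 18.4 and 32.1 CPM. Within the mesangial clusters *Tfpi* was at 44.0, 55.0 and 82.3 CPM in *Rgs5* and *Sfrp2* cells and at 76.9 and 69.2 CPM in *Brinp1* and *Cdh11* cells of untreated and treated mice. Its treated levels in these clusters were thus close, unlike those of *Plat*. In monocyte/macrophage-like cells it had 0 UMIs in control, which allows up to 5.88 CPM (3 counts over the class), and 5.19 and 4.25 CPM in untreated and treated mice.

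**Figure D1:**
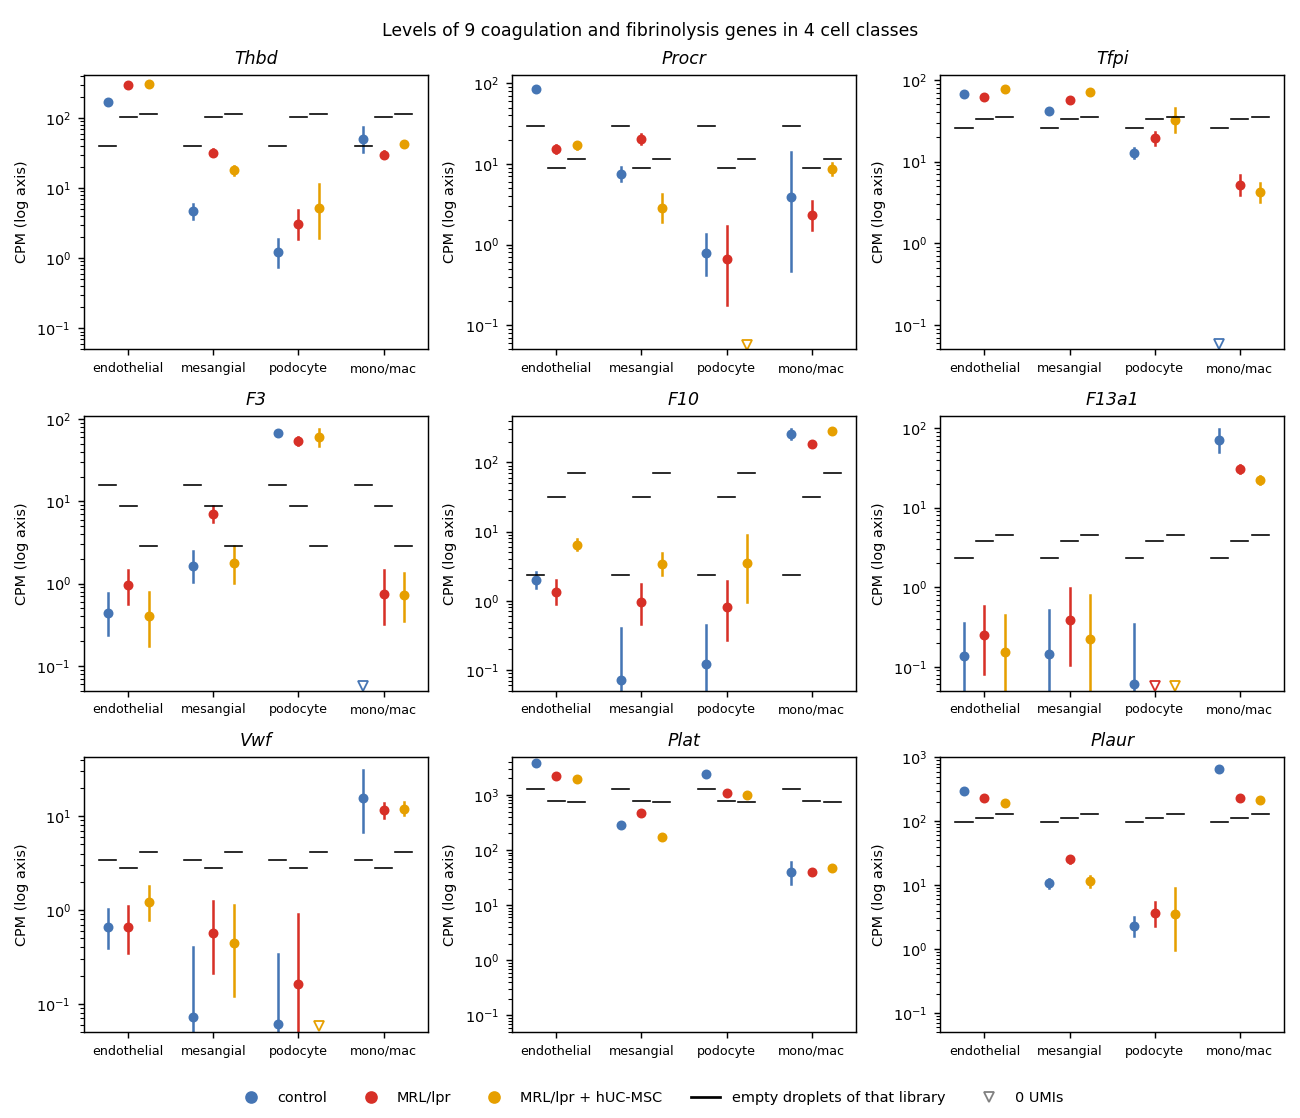
Level of each of the 9 genes in CPM (log axis) in 4 cell classes, with 1 point for each library, bars for exact 95% Poisson intervals, black ticks for the level in empty droplets of that library and open triangles for 0 UMIs. *Procr* in endothelial-like cells is at 85.8 CPM in control and at 15.5 and 17.0 in the MRL/lpr libraries, while *F10* and *F13a1* stand high in monocyte/macrophage-like cells.

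*F3*, the starter of the clotting cascade, was highest in podocytes among the 4 classes in all libraries. Podocyte-like cells held 68.4 CPM in control (64.4 to 72.5), 53.8 in untreated (48.1 to 59.9) and 60.4 in treated mice (47.0 to 76.5), from 1119, 327 and 69 UMIs. The untreated level was below control, with a log2 ratio of -0.35 (-0.53 to -0.17), and the treated interval overlapped both. Thinned podocyte-like cells with an *F3* UMI made up 6.997%, 4.89% and 8.50%, against 0.0699%, 0.120% and 0.0614% of endothelial-like cells. Podocyte-like cells held 87.0%, 52.2% and 34.7% of the *F3* UMIs in cells, a share that was lower in the libraries with fewer of these cells, and collecting duct-like cells held 9.64%, 9.89% and 17.1%. The level in collecting duct-like cells was 77.7 CPM in control (64.6 to 92.7), 25.3 in untreated (19.4 to 32.5) and 26.02 in treated mice (18.02 to 36.4), from 124, 62 and 34 UMIs, so in control its interval overlapped that of podocyte-like cells. Proximal tubule-like cells held 5.59, 18.7 and 15.2 CPM.

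In the other 3 classes *F3* was low. Mesangial-like cells held 1.66, 7.09 and 1.77 CPM from 23, 74 and 16 UMIs, a log2 ratio of 2.10 (1.404 to 2.84) for untreated over control and -1.9998 (-2.88 to -1.21) for treated over untreated, all below empty droplets at 16.01, 8.68 and 2.88 CPM. The higher untreated level was seen in both large mesangial clusters, 2.33 against 8.90 CPM in *Rgs5* and *Sfrp2* cells and 1.38 against 5.85 in the deeper cluster beside it. Treated mice had 4 UMIs in *Rgs5* and *Sfrp2* cells, 5.98 CPM (1.63 to 15.3), and 1.37 CPM in *Brinp1* and *Cdh11* cells. The 8 proximal tubule markers summed to 20.3, 146 and 23.8 CPM in mesangial-like cells, in the same order as *F3*. The part of tubule RNA in the mesangial *F3* level was not tested. Endothelial-like cells held 13, 19 and 8 UMIs of *F3*, 0.445, 0.951 and 0.406 CPM. These few molecules gave ratios past 2-fold in both directions, 1.095 (0.00 to 2.23) and -1.23 (-2.63 to 0.03), at levels below the empty droplets.

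*F10*, the zymogen of factor Xa, was a gene of myeloid cells. Monocyte/macrophage-like cells held 257 CPM in control (215 to 305), 186 in untreated (178 to 195) and 282 in treated mice (273 to 291), from 131, 1974 and 3844 UMIs. The log2 ratio was -0.47 (-0.72 to -0.20) for untreated over control and 0.60 (0.52 to 0.68) for treated over untreated. The first of these ranged from -0.54 to 0.10 over the alternative settings, so its direction turned. Thinned cells with an *F10* UMI made up 21.9%, 16.9% and 25.9%, against 0.0424%, 0.122% and 0 of podocyte-like cells. This class held 61.5%, 87.4% and 82.1% of its UMIs in cells and stood first among the 4 classes in each library. Neutrophil-like cells held 311 CPM in control (178 to 505, from 16 UMIs of 25 cells), 120.1 in untreated and 160.5 in treated mice.

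Within the class *F10* differed widely between sub-clusters. In 3 patrolling monocyte-like sub-clusters, named from markers such as *Cd300e* and *Treml4*, it was at 347, 359 and 223 CPM in untreated and 442, 380 and 290 CPM in treated mice. A sub-cluster with *Marco*, a scavenger receptor, among its leading genes was at 532 and 473 CPM and the *Slpi* and *Il10* one at 494 and 587 CPM. Cells led by *Cd5l*, a gene of tissue macrophages, held only 5.26 and 18.1 CPM, and *Trem2* cells of treated mice 64.2 CPM. The range over sub-clusters was therefore wider than the ratio between the libraries, and the mix differed, with 460 untreated and 55 treated *Cd5l* cells and 23 and 573 *Trem2* cells. Patrolling sub-clusters held 67 of 114 control and 689 of 2137 untreated cells of the class. The part of this mix in the class ratios was not tested. In each patrolling sub-cluster the treated level was the higher one, with intervals that overlapped.

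Endothelial *F10* lay below its level in empty droplets. It was at 2.02, 1.35 and 6.49 CPM from 59, 27 and 128 UMIs, a log2 ratio of 2.26 (1.66 to 2.92) for treated over untreated. Empty droplets held 2.33, 31.9 and 69.2 CPM of *F10*, and the myeloid genes *Lyz2* and *C1qa* were at 47.5 and 25.5 CPM in untreated and 128 and 34.6 CPM in treated endothelial-like cells. After subtraction of the free-RNA estimate, *F10* was at 2.01, 0 and 1.31 CPM in endothelial-like cells. Mesangial-like cells had 0.0721, 0.959 and 3.44 CPM, also below the empty droplets, and the treated level was 7.48 CPM in *Rgs5* and *Sfrp2* cells and 2.997 in *Brinp1* and *Cdh11* cells.

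*F13a1* marked a small part of the monocyte/macrophage-like class. The class held 70.6 CPM in control (49.4 to 97.7), 30.5 in untreated (27.2 to 34.0) and 22.1 in treated mice (19.6 to 24.7), from 36, 323 and 301 UMIs. The log2 ratio was -1.21 (-1.71 to -0.67) for untreated over control and -0.47 (-0.70 to -0.23) for treated over untreated. The control level rests on 114 cells, and 14 of its 36 UMIs came from 1 cell. When cells were thinned to 1000 UMIs the ratio of untreated over control turned to 0.79.

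Inflammatory monocytes carried most of it. The sub-cluster led by *Prtn3*, *Vcan* and *Ly6c2*, with 258 untreated and 232 treated cells, held 189 CPM (168 to 212) and 237 CPM (209 to 267) of *F13a1*. The patrolling sub-clusters ranged from 0.94 to 4.09 CPM in untreated and from 2.83 to 6.30 in treated mice. In this sub-cluster the treated level was above the untreated one with intervals that overlapped slightly, while over the whole class it was below. It made up a smaller share of the treated class, 232 of 3637 cells against 258 of 2137. *F10* was at 239 and 318 CPM in the same sub-cluster, so both factors were present in it.

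*Vwf* was nearly absent from the endothelial-like class. It was at 0.651, 0.651 and 1.22 CPM from 19, 13 and 24 UMIs, below the 3.42, 2.78 and 4.16 CPM of empty droplets, and untreated over control gave a log2 ratio of 0.00 with an interval of -1.14 to 1.09. The arterial subset, marked by *Gja5* and counting 161, 60 and 36 cells, held 13, 3 and 12 of these UMIs, 17.2 CPM (9.14 to 29.3), 9.19 (1.89 to 26.8) and 80.5 (41.6 to 141). Endothelial-like cells outside the arterial subset and a subset led by *Rgs16* and *Tspan8* held 0.220, 0.487 and 0.631 CPM. The arterial subset thus had the highest level in each library, but it held the larger part of the endothelial UMIs in control only, and in untreated mice 8 of 13 came from the other endothelial-like cells.

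Most *Vwf* UMIs came from monocyte/macrophage-like cells in the MRL/lpr libraries, 69.7% of 175 and 64.1% of 256. The class held 15.7, 11.5 and 12.02 CPM from 8, 122 and 164 UMIs, above the empty droplets in each library, with log2 ratios of -0.45 (-1.47 to 0.80) and 0.06 (-0.28 to 0.41). Between 0.877% and 1.35% of its thinned cells held a UMI. The 7 platelet markers summed to 56.9, 98.9 and 37.6 CPM in the same cells, with 4, 1 and 1 of them at 0, and *Pf4*, a platelet chemokine, was at 51.0, 58.6 and 26.6 CPM. *Clec1b*, the platelet podoplanin receptor, was at 3.92, 37.7 and 8.21 CPM, 3.75 times its level in empty droplets in untreated and 1.83 times in treated mice. Most of the sum came from *Pf4* and *Clec1b* in each library. *Gp9* and *Tubb1* were at 0 in control and at most 0.377 CPM in the other libraries, below the empty droplets where these held any. *Ppbp* and *Treml1* were likewise at 0 in control and at most 0.733 CPM, below the empty droplets where these held any. *Itga2b* was at 1.96, 1.32 and 1.61 CPM, below the 7.30, 6.94 and 10.2 CPM of empty droplets. The part of platelet RNA in the *Vwf* level was not tested. *Vwf* was found in patrolling, inflammatory, *Cd5l* and *Trem2* sub-clusters alike, from 4.57 to 23.5 CPM in untreated and 4.73 to 21.9 CPM in treated mice.

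**Figure D2:**
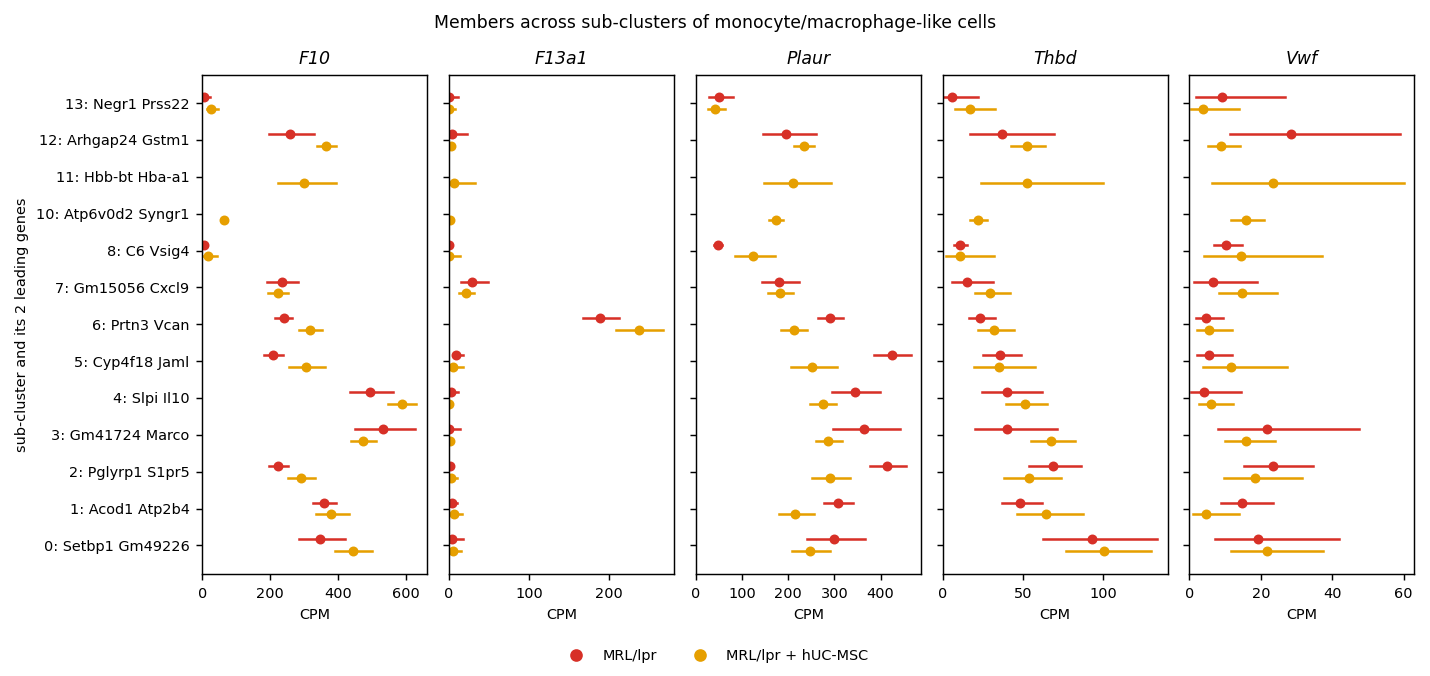
Levels of *F10*, *F13a1*, *Plaur*, *Thbd* and *Vwf* in CPM in the sub-clusters of monocyte/macrophage-like cells with at least 50 cells, in untreated and treated MRL/lpr mice, with exact 95% Poisson intervals. *F13a1* stands at 189 and 237 CPM in the inflammatory monocytes, and *F10* is lowest in *Cd5l* macrophages at 5.26 and 18.1 CPM.

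*Plat*, the activator of plasminogen in the vessel wall, was lower in the endothelial-like class and in podocytes of both MRL/lpr libraries, though not in every endothelial subset. Endothelial-like cells held 3747 CPM in control (3725 to 3770), 2215 in untreated (2194 to 2236) and 1980 in treated mice (1960 to 1999). The log2 ratio was -0.76 (-0.77 to -0.74) for untreated over control and -0.16 (-0.18 to -0.14) for treated over untreated. Podocyte-like cells held 2392 CPM (2368 to 2415), 1099 (1073 to 1126) and 1000.06 (943 to 1060), with ratios of -1.12 (-1.16 to -1.08) and -0.14 (-0.23 to -0.05). Control was the highest library in both classes, and the treated library was slightly below the untreated one.

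Nearly all control cells of both classes carried it. Thinned cells with a *Plat* UMI made up 88.1%, 76.8% and 73.5% of endothelial-like and 89.8%, 66.0% and 61.4% of podocyte-like cells, against 7.02%, 4.77% and 6.35% of monocyte/macrophage-like cells. The class order of endothelial-like, podocyte-like, mesangial-like and monocyte/macrophage-like cells was the same in all libraries, with no overlap of intervals. Empty droplets held 1263, 762 and 732 CPM, so mesangial-like levels of 288, 473 and 174 CPM lay below them. After the free-RNA estimate was subtracted, the mesangial-like levels were 247, 447 and 137 CPM. In the *Rgs5* and *Sfrp2* cluster the mesangial level was 335, 683 and 866 CPM, and in the *Brinp1* and *Cdh11* cluster 141 and 100 CPM in untreated and treated mice. The treated over untreated ratio of the class, -1.44 (-1.52 to -1.36), thus had the opposite sign in the cluster shared by the libraries. The unnamed *Col3a1* and *Cxcl9* cluster held 216, 782 and 321 CPM, and with it the ratio of the class was -1.13.

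The urokinase receptor *Plaur* was expressed in both endothelium and myeloid cells, and its highest levels were in neutrophil-like cells, at 1303, 468 and 341 CPM. The control value there came from 67 UMIs of 25 cells. Endothelial-like cells held 300.2 CPM in control (294 to 307), 231 in untreated (225 to 238) and 194 in treated mice (188 to 200), and monocyte/macrophage-like cells 651 (583 to 725), 229 (220 to 238) and 213 (206 to 221). The ratio of untreated over control was -0.38 (-0.43 to -0.32) in endothelial-like and -1.51 (-1.67 to -1.34) in monocyte/macrophage-like cells. Of these classes the monocyte/macrophage-like one led in control, the intervals of both overlapped in untreated mice, and the monocyte/macrophage-like one led again by a little in treated mice. Thinned cells with a UMI made up 24.1%, 19.4% and 16.4% of endothelial-like and 43.0%, 20.4% and 19.1% of monocyte/macrophage-like cells, against 0.254%, 0.244% and 0.654% of podocyte-like cells.

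Myeloid cells were more numerous in MRL/lpr mice, and the share of all *Plaur* UMIs in endothelial-like cells was 92.4% in control, 54.2% in untreated and 47.5% in treated mice. *Cd5l* macrophages held 48.1 and 123 CPM in untreated and treated mice, and *Trem2* cells of treated mice 173 CPM. In mesangial-like cells *Plaur* was at 10.8, 25.2 and 11.4 CPM, below the empty droplets at 98.7, 114 and 129 CPM, with ratios of 1.23 (0.93 to 1.53) and -1.14 (-1.49 to -0.81). In *Rgs5* and *Sfrp2* cells it was at 14.4, 40.6 and 52.4 CPM, so that the treated over untreated ratio turned there, and in *Brinp1* and *Cdh11* cells at 8.55 and 7.494 CPM. With the unnamed *Col3a1* and *Cxcl9* cluster, at 51.0 and 34.02 CPM in untreated and treated mice, the second ratio was -0.47. Among thinned endothelial-like cells with *Plat*, 25.0%, 20.8% and 17.2% also held *Plaur*, against 16.9%, 14.7% and 14.2% of those without. *Plaur* was thus more frequent in cells with a *Plat* UMI than in cells without one in each library, in cells that are not independent samples. The class joins subsets that differ in the levels of both genes, as given below, and the part of that mix was not tested.

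**Figure D3:**
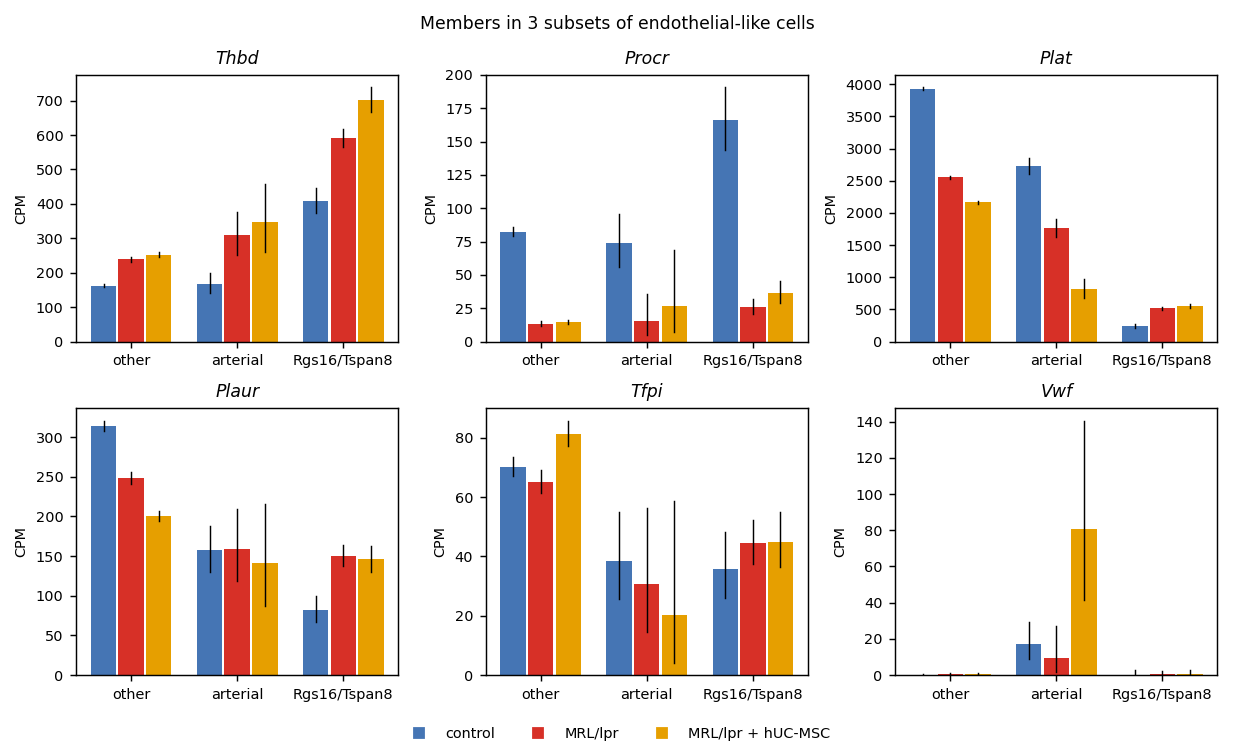
Levels in CPM of *Thbd*, *Procr*, *Plat*, *Plaur*, *Tfpi* and *Vwf* in the arterial subset, the *Rgs16* and *Tspan8* subset and the other endothelial-like cells, as bars from 0 for each library with exact 95% Poisson intervals. *Thbd* and *Procr* are highest in the *Rgs16* and *Tspan8* subset, where *Plat* is lowest.

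The members were not spread evenly over endothelium. The *Rgs16* and *Tspan8* subset, with 247, 486 and 429 cells and little of the glomerular capillary gene *Ehd3*, was defined after the clusters had been seen. It held 409, 591 and 702 CPM of *Thbd*, against 162, 239 and 253 in the other endothelial-like cells outside the arterial subset. *Procr* was also highest there, at 166, 25.8 and 36.5 CPM against 82.6, 13.5 and 14.6. The lower *Procr* level in MRL/lpr was therefore seen in the other endothelial-like cells and between the cells joined in the *Rgs16* and *Tspan8* subset. That subset joins a control sub-cluster, with 246 of its 254 cells from control, and another with 481 untreated and 426 treated cells and 1 from control, which took the name arterial endothelium by its markers. These cells differed in other genes as well, with *Kdr* at 78.1, 430 and 341 CPM, *Ehd3* at 105.5, 308 and 154 and *Sost* at 3.32, 102 and 66.9, so their ratios compare different clusters. *Plat* was low there, at 240 CPM in control (213 to 269), 519 in untreated (495 to 545) and 553 in treated mice (522 to 586), so that its order over the libraries was the opposite of that in the whole class. The other endothelial-like cells held 3931, 2556 and 2165 CPM of *Plat*, and *Plaur* was at 82.2, 150.01 and 146 CPM in the subset against 314, 249 and 200.3. The arterial subset was intermediate for *Plat*, at 2728, 1764 and 818 CPM, and its *Procr* was at 73.9, 15.3 and 26.8. Arterial *Tfpi* was at 38.3, 30.6 and 20.1 CPM, and the other endothelial-like cells outside both subsets held 70.2, 65.2 and 81.4.

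Counts of members past 2-fold were read against those of all genes, since 2 libraries differ in many genes. Members and genes with under 20 UMIs over the pair of libraries were left out. In endothelial-like cells, *F3* was higher and *Procr* lower in untreated MRL/lpr than in control mice among 8 members, while 10.7% of 14920 genes were higher and 6.04% lower. In mesangial-like cells *Thbd*, *Procr*, *F3* and *Plaur* were higher and 0 lower among 6 members, against 11.5% and 5.64% of 13679 genes. In podocyte-like cells *Thbd*, with 20 and 19 UMIs, was higher and *Plat* lower among 5 members, against 8.92% and 6.71% of 12346 genes. This *Thbd* was at 1.22 and 3.12 CPM, far below the empty droplets, and at 0.175 and 0 CPM after the free-RNA estimate was subtracted. In monocyte/macrophage-like cells 0 were higher and *F13a1* and *Plaur* were lower among 8 members, against 13.3% and 8.64% of 11864 genes. The mesangial count of 4 of 6 was the one farthest from its background share. All but *Procr* of these 4 lay below their level in empty droplets in untreated mice. After the free-RNA estimate was subtracted, mesangial-like *Thbd* was at 3.22 CPM in control and 26.02 in untreated mice, and *Procr* at 6.58 and 21.3. *F3* was at 1.06 and 6.94 CPM and *Plaur* at 7.07 and 17.6 after the same step, so each stayed higher in untreated mice. The mesangial count was 1 with predicted doublets kept and the smaller class that the new clusters left, and 2 with cells thinned to 1000 UMIs. Over all genes the median log2 ratio lay between -0.08 and 0.04 in these comparisons.

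The same counts were made between treated and untreated MRL/lpr mice. In endothelial-like cells *F10* was higher and *F3* lower among 8 members, against 5.71% and 4.47% of 14869 genes. Both lay below empty droplets, and *F10* was at 0 CPM in untreated and 1.31 in treated mice after the free-RNA estimate was subtracted. The *F3* ratio rests on 19 and 8 UMIs, with an interval of -2.63 to 0.03. In mesangial-like cells *F10* was higher and *Procr*, *Plat*, *F3* and *Plaur* lower among 7 members, against 3.44% and 6.48% of 13448 genes. Mesangial-like *F10* had 10 UMIs in untreated and 31 in treated mice, and 0 CPM in both after the free-RNA estimate was subtracted. This mesangial count was smaller with thinned cells and in clusters without *Col3a1* among their leading genes, where *Plat* and *Plaur* turned in sign. The treated class is mostly another cluster than the untreated one. In podocyte-like cells 0 of 5 members passed in either direction, against 4.21% and 4.27% of 10609 genes. In monocyte/macrophage-like cells *Procr* was higher and 0 were lower among 8 members, against 2.72% and 5.63% of 13504 genes. The median of all genes was 0.12 in endothelial-like and 0.10 in mesangial-like cells, and the ratios are not centred on it.

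**Figure D4:**
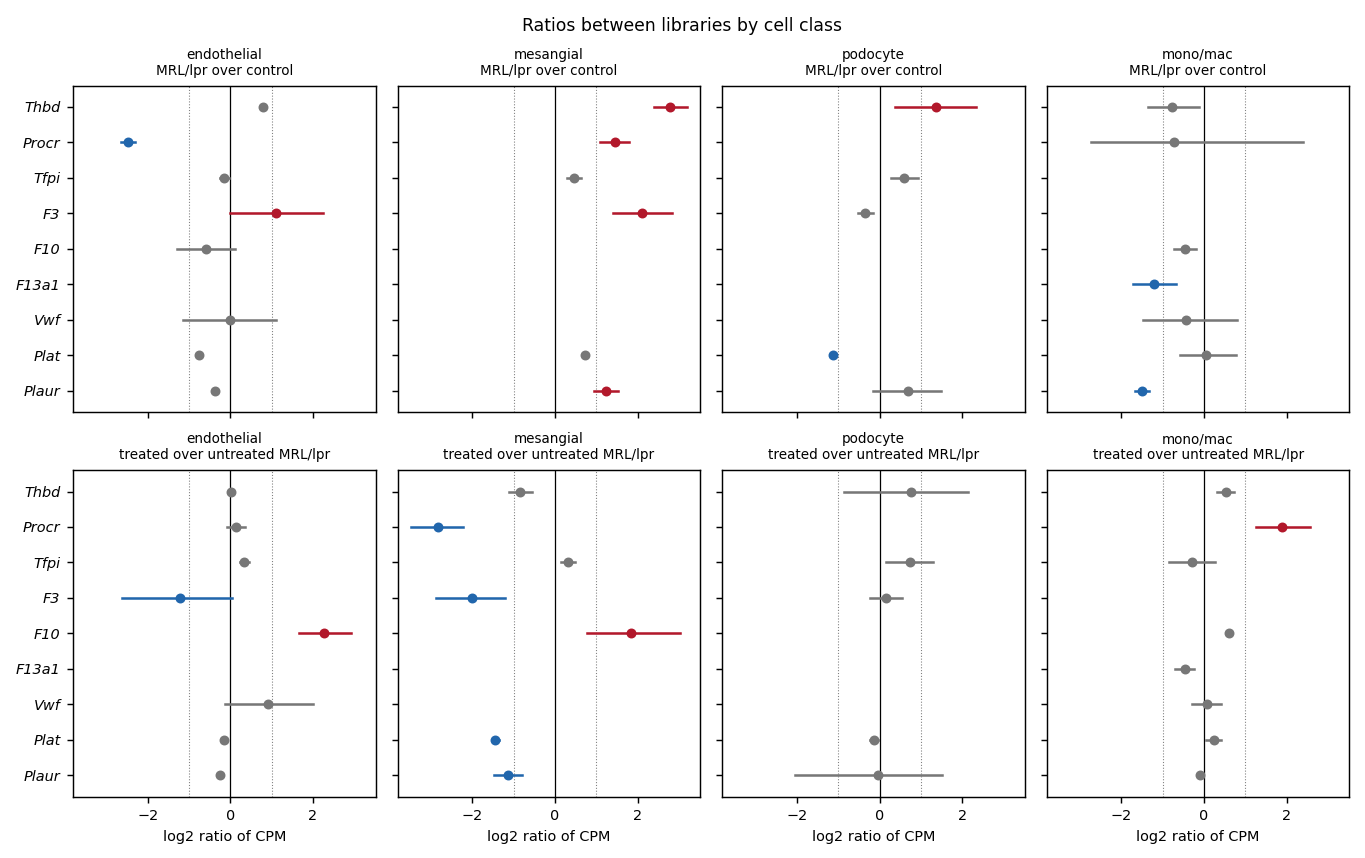
Log2 ratio of the level of each member between libraries, untreated MRL/lpr over control and treated over untreated MRL/lpr, in 4 classes, with exact conditional 95% intervals and dotted lines at 2-fold. Members with under 20 UMIs are not drawn. Neither is *Tfpi* in monocyte/macrophage-like cells for MRL/lpr over control, which had 0 UMIs in control. The *Procr* point lies at -2.47 in endothelial-like and at 1.44 in mesangial-like cells for MRL/lpr over control.

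The other genes of coagulation and fibrinolysis numbered 51. In endothelial-like cells 8 of 30 listed genes with enough UMIs were past 2-fold higher and 1 lower, against 10.7% and 6.04% of all genes, and 5 of 8 measured fibrinolysis genes were among those higher. Among the other lists, 1 of 8 clotting factors, 1 of 9 anticoagulants, 0 of 2 protease-activated receptors and 1 of 3 platelet adhesion genes were higher in these cells. The clotting factor was *F13b* and the anticoagulant *Proc*, and both were lower again in treated mice. The 8 proximal tubule markers summed to 34.4, 185 and 36.6 CPM in the same cells, also highest in untreated mice, and their part in these genes was not tested. Of the fibrinolysis genes 2 of 7 were past 2-fold higher in mesangial-like cells, where 11.5% of all genes were, and 1 of 6 in podocyte-like cells, where 8.92% were. In monocyte/macrophage-like cells 3 of 8 were higher and 1 lower, against 13.3% and 8.64%. In endothelial-like cells *Serpine2*, a serpin that acts on thrombin and plasminogen activators, was at 202, 513 and 486 CPM. Untreated over control gave 1.35 on the log2 scale, but *Serpine2* was below its level in empty droplets, 460.3, 702 and 855 CPM. In the same endothelial-like cells *S100a10*, a plasminogen-binding partner of annexin A2, was at 745, 1517 and 1399 CPM. These levels were above the 559, 954 and 830.5 CPM of empty droplets. *Thbs1*, a matrix protein, and *Serping1*, the C1 inhibitor, were past 2-fold higher in endothelial-like cells too. Their levels went from 1.096 to 5.26 CPM and from 8.77 to 40.7 CPM, in control and untreated mice. Both were below empty droplets, which held 40.1 and 93.7 CPM of *Thbs1* and 61.5 and 54.8 CPM of *Serping1* in these libraries. *Selp*, the adhesion receptor P-selectin, was at 5.79, 26.5 and 69.6 CPM in endothelial-like cells. These levels were above the 3.73, 13.5 and 19.5 CPM of empty droplets. *Selp* was higher again in treated than in untreated mice by 1.39 (1.25 to 1.54) on the log2 scale.

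In mesangial-like cells 5 of 21 listed genes were past 2-fold higher in untreated MRL/lpr than in control mice and 0 lower, against 11.5% and 5.64% of all genes. *Thbs1* was at 79.1, 278 and 519.6 CPM over the 3 libraries, above the empty droplets in each. *F8*, a clotting cofactor made by endothelium, was at 9.31, 36.3 and 12.97 CPM, below the 49.7, 77.4 and 63.4 CPM of empty droplets and in the same order as the endothelial markers of these cells, and its part in that was not tested. *F2r*, the thrombin receptor PAR1, was at 228, 436 and 984 CPM and the one gene of 22 past 2-fold higher in treated than in untreated mice, 1.17 (1.12 to 1.23), against 3.44% of all genes, while *F8* was the one gene past 2-fold lower, against 6.48%. It was above the empty droplets in each library. The 6 smooth muscle and renin markers summed to 230, 546 and 866 CPM in the same cells and the 5 fibroblast markers to 112, 128 and 207, with none at 0 but 1 fibroblast marker in control, in the same order as *Thbs1* and *F2r*, and their part in these levels was not tested.

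In podocyte-like cells 4 of 19 listed genes were past 2-fold higher in untreated MRL/lpr than in control mice and 1 lower, against 8.92% and 6.71% of all genes. *Serpine2* was at 10.9, 31.4 and 71.8 CPM, far below the empty droplets. *Pros1*, the protein C cofactor, was high in each library, at 325, 381 and 470 CPM, and *F2r* at 119, 235 and 384 CPM, both above the empty droplets. Treated over untreated passed 2-fold for 3 of 16 genes, all higher, against 4.21% of all genes, among them *Serping1* at 9.54 and 35.9 CPM, below the empty droplets. The treated values rest on 153 cells.

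In monocyte/macrophage-like cells 5 of 22 listed genes were past 2-fold higher in untreated MRL/lpr than in control mice and 2 lower, against 13.3% and 8.64% of all genes. *S100a10* was at 226 and 535 CPM in control and untreated mice, below the empty droplets, while *F5*, the cofactor of factor Xa, was at 43.1 and 14.0 CPM and *Thbs1* at 426 and 156 CPM, both above the empty droplets. *F7*, the plasma partner of tissue factor, was at 0 UMIs in control, which allows up to 5.88 CPM, 6.79 CPM in untreated (5.31 to 8.55) and 28.4 CPM in treated mice, above the 0.694 and 8.004 CPM of empty droplets in the MRL/lpr libraries, and treated over untreated gave 2.07 (1.70 to 2.45) on the log2 scale. Between treated and untreated mice 2 of 24 genes passed 2-fold higher and 3 lower, against 2.72% and 5.63% of all genes. These counts come from genes listed with earlier results of these data known and describe these libraries only.

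**Figure D5:**
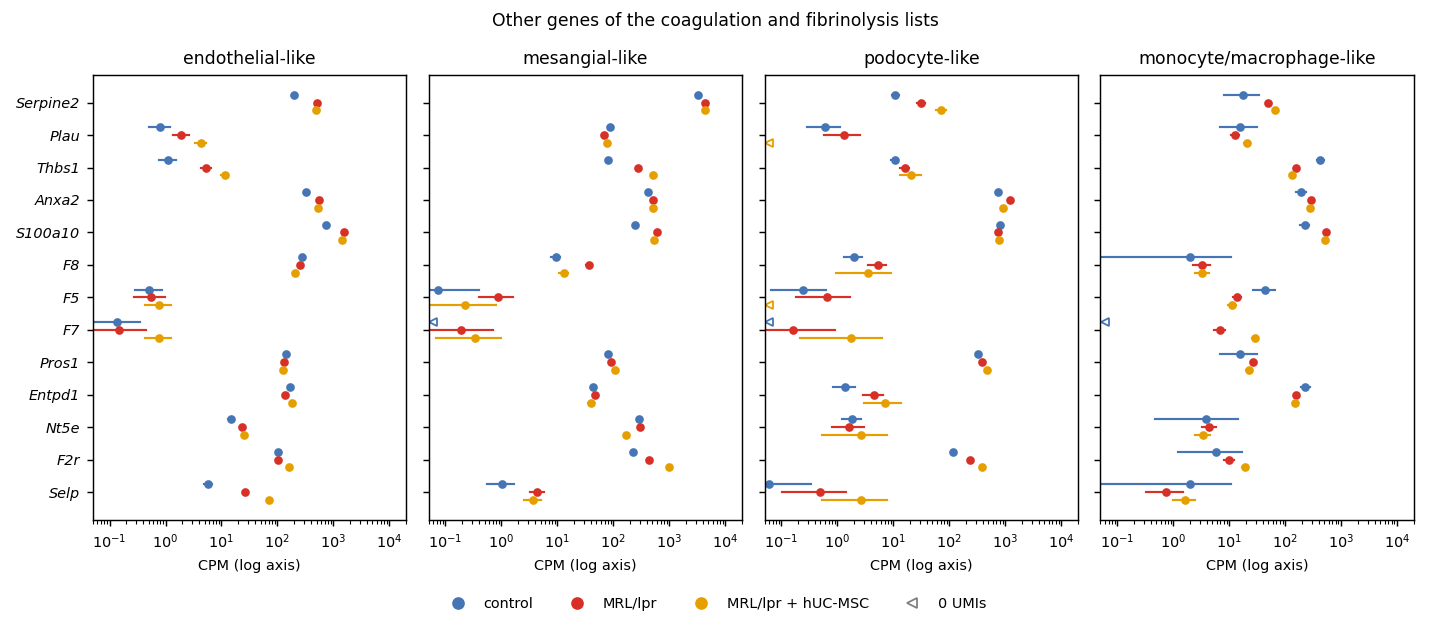
Levels in CPM (log axis) of 13 other genes of coagulation and fibrinolysis in 4 cell classes, with 1 point for each library and exact 95% Poisson intervals. In endothelial-like cells *Serpine2* is at 202 CPM in control and 513 in untreated mice. *F7* in monocyte/macrophage-like cells is at 0 UMIs in control, with an exact upper limit of 7.23 CPM, and at 6.79 and 28.4 CPM in untreated and treated mice.

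Each member was set against all genes with at least 200 UMIs by the Pearson correlation of log levels over 26 class and library pairs, which share library and depth, as a description without a test. *F10* was most like *Cd300ld*, *Clec12a* and *Cd300c2*, with r of 0.992, 0.987 and 0.987, and *F13a1* like *Dpep2*, *Vcan* and *Fcgr1*, with 0.981, 0.976 and 0.976. *Plat* was most like *Slc9a3r2*, *Tshz2* and *Amigo2* (0.975, 0.964 and 0.924), and *Thbd* like *Parvb*, *Stab1* and *Dram1* (0.944, 0.930 and 0.925). *Procr* had the lowest best likeness, with *D430040D24Rik*, *Il33* and *Gm11730* at 0.897, 0.879 and 0.876. *Plaur* was most like *6430548M08Rik*, *Pik3r6* and *Sh2b2* (0.971, 0.960 and 0.948), and *Tfpi* like *Emilin1*, *Dlc1* and *Eml1* (0.939, 0.935 and 0.934). *F3* was most like *Pard6b*, *Pkp2* and *Npnt* (0.952, 0.940 and 0.931), and *Vwf* like the myeloid genes *Apoc2*, *Wdfy4* and *Btk* (0.962, 0.960 and 0.960).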

How the data were processed

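The authors deposited UMI counts of every gene and barcode of 3 libraries, with no cell call and no scaling. They were made with Cell Ranger and STAR on mm10, per the labels' processing notes, while the version of Cell Ranger differs between the file header and the methods. Barcodes with at least 1000 UMIs and at most 10% mitochondrial UMIs were kept, which is wider than the methods' limits. Doublets scored with Scrublet were removed at 0.8% per 1000 barcodes and at most 10%, 971, 1411 and 1659 cells.

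Clusters were made with scanpy 1.11.5 and leidenalg 0.10.2 in Python 3.11.15 (2000 variable genes, 10 principal components, 15 neighbours, resolution 1.0, no integration), without the 9 members and the listed pathway genes. A cluster was named by the share of a class's markers detected in 10% or more of its cells at a level 2-fold or more above the other cells, with at least 3 such markers. This naming rule replaced a mean score after the clusters had been seen. Libraries were grouped by their labels, and 0 samples were unassigned.

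Counts were summed over classes and scaled to CPM. Levels carry exact Poisson intervals, ratios exact conditional binomial ones and shares of cells exact binomial ones, all at 95% (scipy 1.17.1), and they cover counting error only. Genes at 0 were set to 3 counts over the class as a bound. Free RNA was taken from barcodes of 1 to 100 UMIs. The intervals were tried on simulated Poisson counts with known ratios. Such counts hold no spread between cells or mice, so this checks the calculation only. No difference between groups was tested. Alternatives changed the cell calling, doublets, resolution, gate, depth, free RNA, gene minimum and sub-clusters. The genes named are the 9 members, 51 pathway genes in 5 lists, markers, leading genes of clusters, and for each member the 3 genes most like it. Members and lists were chosen with earlier results of these data known. An item withheld for evaluation was left out of the lists, their counts and the plots.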

Additional observations from a re-analysis of the deposited data

Results flagged for a closer look

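The ratios of 2 members were past 2-fold in opposite directions in 2 cell classes under the same contrast. Other members had opposite signs under 2-fold. Among them was *Plat*, at 0.72 in mesangial-like and -0.76 in endothelial-like cells for untreated MRL/lpr over control. In each case the difference between the classes was not tested, since there was 1 library per group.

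*Procr*, the protein C receptor, had a log2 ratio of untreated MRL/lpr over control of 1.44 in mesangial-like and -2.47 in endothelial-like cells. With predicted doublets kept and clusters made anew the mesangial-like one was 0.34, in a class of 786 in place of 1610 untreated cells. The mesangial-like levels were 7.503 and 20.4 CPM in control and untreated mice and the endothelial-like ones 85.8 and 15.5 CPM. For treated over untreated MRL/lpr the same gene had a log2 ratio of 1.89 in monocyte/macrophage-like and -2.82 in mesangial-like cells. These came from 25 and 119 UMIs and from 213 and 26 UMIs in untreated and treated mice. The monocyte/macrophage-like levels were below the empty droplets in both libraries. Of the mesangial-like cells, 51 of 1610 untreated and 770 of 890 treated ones were of the *Brinp1* and *Cdh11* cluster.

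*Plaur*, the urokinase receptor, had a log2 ratio of untreated MRL/lpr over control of 1.23 in mesangial-like and -1.51 in monocyte/macrophage-like cells. The mesangial-like levels of 10.8 and 25.2 CPM were below the empty droplets in both libraries. They were 7.07 and 17.6 CPM after the free-RNA estimate was subtracted. The control monocyte/macrophage-like level rests on 114 cells.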

How the results depend on the processing

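The 8 counts of members past 2-fold were 2, 4, 2 and 2 for MRL/lpr over control in endothelial-like, mesangial-like, podocyte-like and monocyte/macrophage-like cells, and 2, 5, 0 and 1 for treated over untreated MRL/lpr. A cell call by order of magnitude with the methods' limits on genes and mitochondrial UMIs, but not their ribosomal limit, and with clusters made anew, is called the narrower cell call. For MRL/lpr over control it gave 1 in endothelial-like and 1 in podocyte-like cells. A marker gate on each cell gave 4 and 4 there. Cells thinned to 1000 UMIs gave 1, 2, 1 and 1 over the 4 classes. A minimum of 50 UMIs gave 1 in endothelial-like and 1 in podocyte-like cells. With doublets kept and clusters made anew the mesangial-like count was 1, in a class without its largest untreated cluster, which took no name, and the podocyte-like count 4, and with free RNA subtracted the podocyte-like count was 1. Patrolling monocyte-like sub-clusters alone gave 1. For treated over untreated, the gate, thinning and the minimum of 50 UMIs each gave 1 in endothelial-like cells. Thinning gave 1 in mesangial-like cells, and mesangial clusters without *Col3a1* among their leading genes gave 2. In podocyte-like cells, doublets kept gave 1, resolution 2.0 gave 1 and the gate 2. *Cd5l* macrophages alone gave 2, inflammatory or patrolling sub-clusters alone gave 0, and the monocyte/macrophage-like class with the unnamed *Gpnmb* and *Trem2* cluster gave 3. With the unnamed *Col3a1* and *Cxcl9* cluster the mesangial-like counts were 5 and 4.

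Of 54 ratios 20 changed sign under at least 1 setting, 3 of them past 2-fold as reported. Of these 3, *F13a1*, MRL/lpr over control in monocyte/macrophage-like cells, was at 0.79 with thinned cells. Treated over untreated in mesangial-like cells, *Plat* was at 0.85 with the narrower cell call and at 0.65 in clusters without *Col3a1* among their leading genes, and *Plaur* at 2.22 and 0.73. The other 17 were under 2-fold as reported. Among them treated over untreated, mesangial *Thbd* ranged from -1.44 to 1.25 around -0.84, podocyte *Thbd* from -0.93 to 1.14 around 0.75 and monocyte/macrophage *Plaur* from -0.47 to 1.36 around -0.10. For MRL/lpr over control, endothelial *F10* ranged from -3.61 to 1.47 around -0.58, monocyte/macrophage *F10* from -0.54 to 0.10 around -0.47 and mesangial *Plat* from -0.03 to 0.86 around 0.72. With the *Gpnmb* and *Trem2* cluster, monocyte/macrophage *Plat* was at 2.00 and *Tfpi* at 1.27 for treated over untreated, and *Plat* at -1.20 for MRL/lpr over control. Mesangial *Procr*, MRL/lpr over control, ranged from 0.34 to 1.70. Endothelial *Procr*, MRL/lpr over control, ranged from -2.61 to -2.24 over 12 settings, the reported one included, and *Thbd* from 0.50 to 0.83. The causes were not tested. A minimum of 2000 UMIs moved 0 of 54 ratios by more than their counting interval, and centring on the median of all genes moved 7 of 54. Thinning moved 18, reversed 1 and left 22 within it, and the gate moved 18 and left 29. The narrower cell call moved 15, reversed 2 and left 25, and doublets kept moved 10 and left 44. Endothelium without sub-clusters led by other classes moved 9 and left 5. That setting kept 3863 of 5720 control, 2047 of 4172 untreated and 1232 of 4884 treated endothelial-like cells. Alternatives that leave under 50 cells of a class in a library gave no value, which was so for the control monocyte/macrophage-like class under the narrower cell call (41 cells) and the gate (36 cells). The glomerular capillary sub-clusters alone were not run, as no sub-cluster took that name. The alternatives on endothelial subsets and unnamed clusters were chosen after seeing the data. No paired analysis was possible because there is 1 library per group.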
